A study of Mus musculus with 13 samples.

Results

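The bladder of the mouse embryo was set against RNA of the whole newborn mouse, to find the genes with more signal in this organ than in the average of all organs. The 6 arrays used are every bladder array and every reference array of a series of 13: 3 of the bladder (numbered 2, 6 and 8 after their titles, as bladder 2, 6 and 8) and 3 of the reference (reference 1, 2 and 3). The bladders were dissected at embryonic day 14. FVB/N females had been mated with males carrying SMGA/EGFP, a transgene in which the promoter of the smooth muscle gamma-actin gene Actg2 drives a green fluorescent protein, and the green signal guided the dissection. Bladder 2 was at Theiler stage 21 and bladder 6 and 8 were at stage 22. Their sex was not known and they were not pooled. The reference was wild-type FVB/N RNA from whole mice at postnatal day 1 (Theiler stage 27), pooled from 4 males and 4 females. Organ, age, transgene and pooling thus differ together between the groups and cannot be told apart. The other 7 arrays, 4 of the urogenital sinus and 3 of the urethra of transgenic embryos of the same day, entered the fit and serve as a comparison. Because the labels do not say which arrays came from separate embryos, p-values measure only the spread between the bladder, sinus and urethra samples used. The reference arrays repeat pooled RNA and were averaged into 1 sample in the main fit. Their own spread thus enters no SE or p-value of that fit, and the reference was assumed to vary like a region sample.

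The bladder forms from the front end of the embryonic cloaca. Its lining, the later urothelium, sends hedgehog signals to the surrounding mesenchyme, and this mesenchyme turns into the smooth muscle of the bladder wall. Contractile genes are switched on by serum response factor together with myocardin, its muscle partner. Where along the body a tissue lies is recorded in its Hox genes, and the genes at the 5' end of the Hox clusters mark the hind end and the genital region.

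Values are log2 signal intensities, on which a step of 1 doubles the signal. The floor was 5.65, and a probe set at or under 7.39 (the filter level) was taken as dim. A gene was called at a limma adjusted p under 0.05. Bladder medians, as linear intensities, lay between 142 and 238 and reference medians between 278 and 455, although every array had the same trimmed mean. Above the filter level were 47.1% to 56.7% of probe sets on bladder arrays and 59.4% to 71.4% on reference arrays. For beta-actin the 3' probe set exceeded the 5' one, a sign of shortened RNA, by a log2 difference of 1.56 to 4.04 on bladder arrays, with the top value on bladder 8, and 1.30 to 3.01 on the reference. For Gapdh it was 4.26 to 5.26 and 4.18 to 4.48. The mean log2 signal of the spiked control RNAs was 12.68 to 13.02 on bladder and 13.78 to 14.58 on reference arrays, with no overlap. The reference repeats correlated at 0.889 to 0.899 with each other, below the 0.938 to 0.974 among bladder arrays. The part of these differences in the results was not tested.

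Of 15019 genes tested, 2557 (17.0%) were called: 874 (5.82%) higher in the bladder and 1683 (11.2%) lower. Higher calls were mostly moderate, with a median difference of 2.05 and only 29 past 16-fold. Lower calls had a median of -3.44, and 634 were past 16-fold. For 988 of the lower calls every bladder array was dim. The median difference of all genes was -0.27 with the deposited scaling, 0.09 after quantile normalization and 0.56 after centring arrays on their medians. With these scalings the split became 1055 higher and 1256 lower, and 1129 higher and 995 lower. Under all 3 scalings, 745 genes (4.96%) were higher and 983 (6.55%) lower. Without bladder 6 the higher calls fell to 475, and without bladder 8 to 522. Titles were written in 3 styles, of which 2 hold both bladder and reference arrays. Within both of these styles 866 of the 874 higher and 1679 of the 1683 lower calls kept their sign. The same arrays gave the calls, so the kept signs are no separate check on title style.

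**Figure D1:**
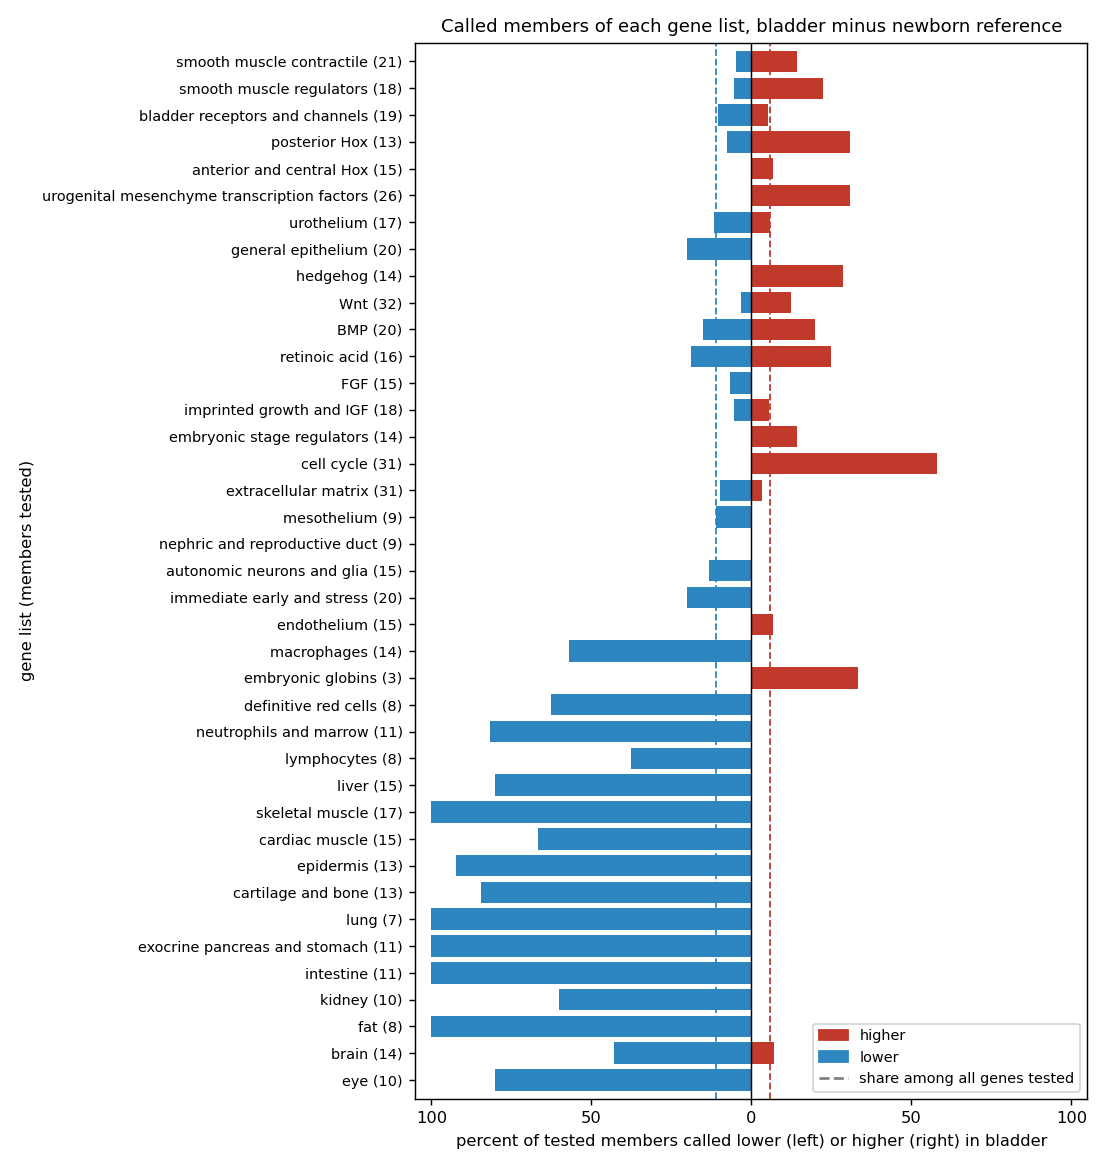
Share of the tested members of each of 39 gene lists called higher (right, red) or lower (left, blue) in bladder than in the newborn reference, in percent, with the number tested in brackets and dashed lines at the shares among all genes (5.82% and 11.2%). Cell cycle genes reach furthest to the right, with 18 of 31 members, and the organ and blood lists at the bottom extend to the left.

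The 20 genes with the largest higher differences span regulators of smooth muscle and mesenchyme, an embryonic globin, a posterior Hox gene and a group of genes for DNA replication, repair and cell division. Their differences ran from 4.09 to 7.12, or 17.0-fold to 139-fold, and all 20 were called under all 3 scalings. Bladder values lay between 9.80 and 15.89 and reference values between the floor and 10.85. Against the mean of sinus and urethra, 5 of the 20 were called higher in the bladder, 1 lower and the rest neither. Among all genes these shares were 1.85% and 3.06%. Reference 3 was the lowest reference array for 12 of the 20. Another probe set of the gene was kept for 10 of them, and for 3 of these (Cdc7, Atad5 and Brca1) a second probe set pointed the other way.

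Myocd, which encodes myocardin, had the largest difference. It measured 14.79, 15.11 and 12.93 on bladder 2, 6 and 8, against the floor of 5.65 on reference 1 and 7.90 and 7.93 on reference 2 and 3. All bladder arrays thus lay far above all reference arrays, with a difference of 7.12 (SE 1.77, adjusted p = 0.0223). A second probe set gave a smaller difference of 2.07, and the call was lost without bladder 2 or without bladder 6 (adjusted p up to 0.0573). Adamts20, a secreted metalloprotease of the embryonic matrix, read 12.49, 12.07 and 12.70 in the bladder and 7.56, 6.35 and 5.65 in the reference, 59.7-fold apart (adjusted p = 5.4185e-06). Tbx20, a T-box transcription factor best known from the heart, read 13.95, 14.22 and 13.91 in the bladder. Its reference values of 10.47, 9.36 and 5.74 were spread widely but stayed below. For Tbx20 the difference was 5.51 (SE 0.80, adjusted p = 0.00123), where the SE leaves out the spread of the reference. Its other probe sets gave differences of 1.30 and 4.21.

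Several of the top genes serve dividing cells. Cdc7, a kinase that starts DNA replication, differed by 5.02, but its second probe set by -0.04. Cep55, needed for the final cut between daughter cells, read 13.81, 14.17 and 13.31 in the bladder against 10.80, 10.81 and 5.65 in the reference. Kif20b, a mitotic kinesin, differed by 4.17, and Depdc1a by 4.79. Brca1, a DNA repair gene, differed by 4.31 on its brightest probe set, with others from -0.89 to 1.92. Atad5, which unloads the replication clamp, differed by 4.33, with -0.90 on a second probe set. The remaining top genes included Mex3b, an RNA-binding protein (4.96), Bcl2l11, which promotes cell death (4.10), Gabra4, a GABA receptor subunit (4.44), Sfmbt2, an imprinted Polycomb gene (4.13), Tmem200a (4.19), Thsd1 (4.24), Zfp760 (4.51) and Ccdc14 (4.88). Other probe sets gave smaller differences: 1.52 for Gabra4, 0.80 for Thsd1, 1.89 for Kif20b and 0.30 to 2.60 for Bcl2l11. Zgrf1 was dim on all reference arrays, so its signal was at least 5.89-fold higher.

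**Figure D2:**
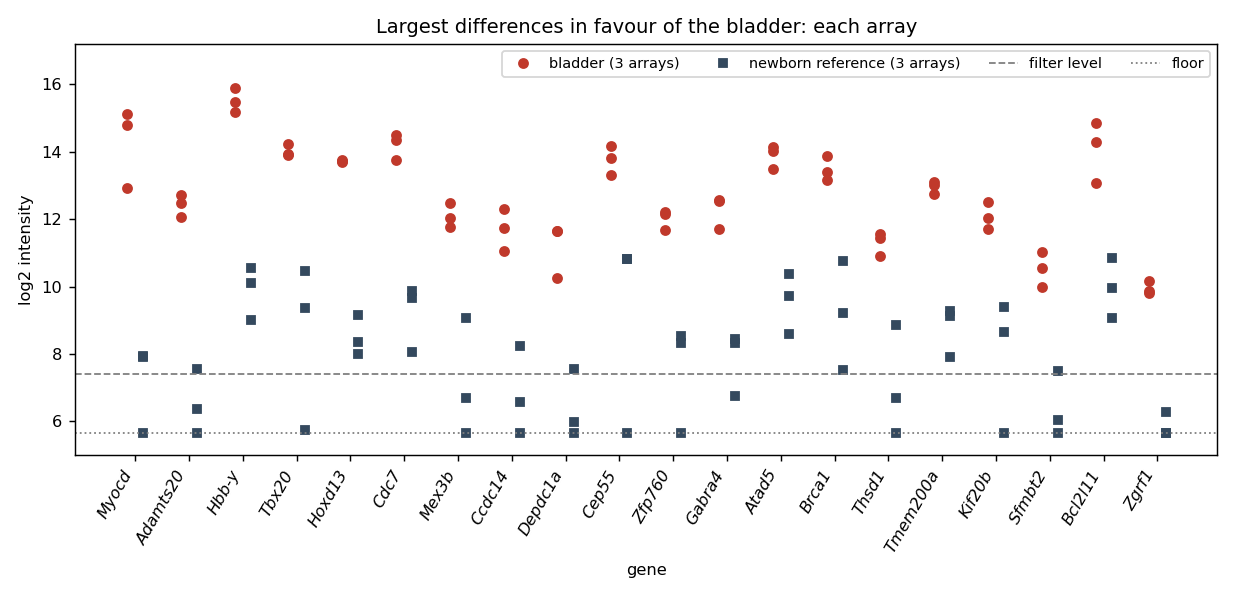
Log2 intensity on each bladder array (circles) and each newborn reference array (squares) for the 20 genes with the largest higher differences, with the filter level (7.39, dashed) and the floor (5.65, dotted). Circles and squares do not overlap for any of these genes, which was a condition for being shown, and several reference arrays sit at the floor.

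Most contractile genes of smooth muscle were not called between the bladder and the whole newborn. Of 21 tested, 3 were higher (1 with the mean of probe sets) and 1 lower, against 5.82% and 11.2% of all genes. The median difference was 0.49 against -0.27 over all genes. Actg2, whose promoter marked the dissected tissue, read 13.97, 13.51 and 13.55 in the bladder and 13.13, 13.64 and 14.01 in the reference. The groups overlapped and the gene was not called (difference 0.08, SE 0.81, adjusted p = 0.956); after quantile normalization the difference was -0.11. Acta2, smooth muscle alpha-actin, read 15.84, 15.59 and 15.62 against 15.51, 15.31 and 15.57, and again was not called (adjusted p = 0.85). These signals are high on every array of both groups. In bulk RNA, fewer cells of a type and less RNA per cell cannot be told apart.

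Among the contractile genes that were called, Synpo2, an actin-binding protein of muscle, read 14.04, 14.42 and 14.03 in the bladder and 11.19, 10.96 and 10.57 in the reference (difference 3.26, SE 0.53, adjusted p = 0.00236). Other probe sets of Synpo2 ranged from -2.02 to 1.27. Ppp1r14a, an inhibitor of myosin phosphatase that favours contraction, read 10.40, 9.73 and 9.66 against 8.32, 5.83 and 6.95, a 7.44-fold difference. Pdlim7, a scaffold of the actin cytoskeleton, was 4.95-fold higher, while its other probe sets gave -1.04 and -0.55. Ppp1r14a has no other kept probe set, so the 2 others rest on probe sets that disagree among themselves.

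Des, the intermediate filament of all muscle types, was lower: it was dim on every bladder array (7.20, 6.24 and 5.65) and read 11.19, 11.37 and 12.28 in the reference, at least 18.6-fold apart. The second Des probe set gave -1.14. Tpm1, a tropomyosin shared with skeletal and heart muscle, stood at 13.09, 13.42 and 12.98 against 15.52, 15.64 and 16.06 without being called (adjusted p = 0.0617). Some genes more restricted to smooth muscle had positive but uncalled differences. These were 1.51 for Myh11, the smooth muscle myosin heavy chain (SE 1.18), and 1.43 for Mylk, its light chain kinase (SE 0.70). Tagln differed by 0.62 (SE 0.88) and Cnn1 by 0.49 (SE 0.97). The other Mylk probe sets gave -0.92 and 2.66. Over the 21 genes of the list, 15 differences were above 0 and 6 below. For Myh11 all bladder arrays (12.39 to 12.76) nevertheless lay above all reference arrays (10.88 to 11.37); the sinus and urethra arrays, which share the fit, had SDs of 1.54 and 1.07 for this gene. Myh11 had an adjusted p of 0.00274 in a fit of the bladder and reference arrays alone, which also counts the 3 reference repeats as 3 samples.

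**Figure D3:**
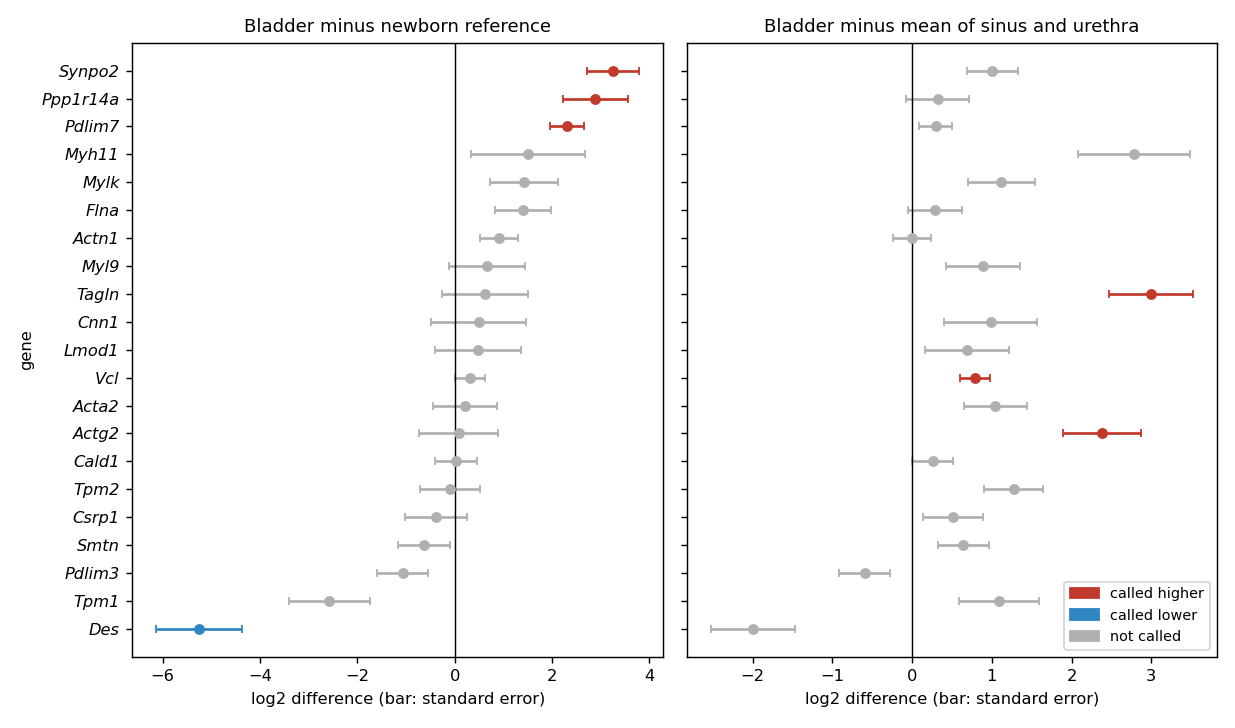
Log2 differences (points) with their standard errors (bars) for the 21 smooth muscle contractile genes, bladder minus newborn reference (left) and bladder minus the mean of urogenital sinus and urethra (right), coloured by call. Both panels use the same bladder arrays. Actg2 sits at 0.08 on the left and at 2.39 on the right, and Des is lowest on both sides.

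Among the regulators above the contractile genes, Myocd was joined by other factors of visceral mesenchyme. Of 18 tested, 4 were higher (5.82% of all genes were) and 1 lower, with a median of 0.56. Foxf1, a forkhead factor of visceral mesenchyme that responds to hedgehog, read 13.90, 14.62 and 14.80 in the bladder against 10.69, 10.42 and 10.12 in the reference. All bladder arrays were above all reference arrays and the difference was 4.03 (SE 0.71, adjusted p = 0.00383), with 0.94 on another probe set. Gata6, a zinc finger factor of visceral smooth muscle, read 13.68, 13.23 and 12.92 against 10.20, 10.88 and 9.85, a difference of 2.96 close to the threshold (adjusted p = 0.0487). Itga8, an integrin subunit of mesenchyme and smooth muscle, was 4.28-fold higher, and 5.48 log2 units higher on a second probe set. The Gata6 and Itga8 calls were each lost without any 1 of the 3 bladder arrays (adjusted p up to 0.102 and 0.0714), and without bladder 2 or bladder 6 1 higher call was left in this list; without reference 1 there were 7. Synm, an intermediate filament protein that pairs with desmin, was 14.2-fold lower.

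Receptors, channels and other parts of bladder contraction were mostly not called. Of 19 tested, 1 was higher and 2 were lower, near the shares among all genes (5.82% and 11.2%). Pde5a, the phosphodiesterase that breaks down cyclic GMP and the target of sildenafil, read 14.92, 14.91 and 14.78 in the bladder and 11.97, 11.66 and 11.05 in the reference, 9.92-fold apart, and its other probe sets agreed in sign (1.94 and 3.45). The lower genes both handle calcium in the sarcoplasmic reticulum and are abundant in the heart. Casq2, cardiac calsequestrin, was 58.9-fold lower, and Pln, phospholamban, 10.2-fold lower, although the latter call was lost after median centring (adjusted p = 0.0641).

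Posterior Hox genes split. Of 13 tested, 4 were higher and 1 was lower, against 5.82% and 11.2% of all genes, with a median of 0.11. Hoxd13, the most 5' gene of its cluster and a marker of the genital region and digits, read 13.74, 13.77 and 13.71 on the bladder arrays, which is nearly the same signal on each. It read 8.0, 9.15 and 8.35 on the reference, for a difference of 5.24 (SE 0.33, adjusted p = 3.069e-06). Hoxd10 averaged 12.33 in the bladder against 8.89, 7.91 and 8.09 on the reference arrays, a 16.4-fold difference. Hoxa9 was 7.11-fold higher on its brightest probe set, with -1.07 on the other, and Hoxa10 3.66-fold higher, a call lost without bladder 8 (adjusted p = 0.058).

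Not all posterior Hox genes followed. Hoxc13, which is known from hair and nails, lay at the floor of 5.65 on every bladder array and at 9.12, 8.77 and 8.34 in the reference, at least 2.56-fold lower in the bladder. Hoxa13, partner of Hoxd13 in the cloaca and its derivatives, gave 6.69, 7.20 and 7.48 against 6.45, 7.67 and 6.92, near or under the filter level in both groups, and was not called. Hoxd11 and Hoxb9 were dim on all bladder arrays and likewise not called. Of 15 anterior and central Hox genes tested (median -0.58), 1 was higher and none lower by limma, against 5.82% and 11.2% of all genes. The 1 was Hoxd8, 3.13-fold higher in the bladder, and its call was lost without bladder 6, bladder 8 or reference 3 (adjusted p up to 0.0687).

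Transcription factors of urogenital mesenchyme held a larger share of higher calls than genes overall. Of 26 tested, 8 were higher and none lower, against 5.82% and 11.2% of all genes; the 8 were called under all 3 scalings, and 8 or 9 members were called when any 1 array was left out. With the mean of a gene's probe sets in place of the brightest one, 4 were called. The list's median was 0.94. Meis1, a homeodomain partner of Hox proteins, read 13.96, 13.71 and 14.21 in the bladder and 11.21, 10.51 and 10.16 in the reference (difference 3.33, SE 0.35, adjusted p = 0.000135). Its other probe sets gave -0.76 and 0.21. Meis2, its paralog, read 14.88, 14.70 and 14.54 against 12.84, 11.85 and 11.58, a 6.11-fold difference, with 0.08 to 3.19 on others.

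The T-box factors Tbx2 and Tbx3, repressors found in many embryonic mesenchymes, were also higher. Tbx2 read 11.66, 10.87 and 11.35 against 8.64, 8.46 and 8.47, and Tbx3 was 7.11-fold higher on its brightest probe set, with -0.51 to 0.95 on others. Hand2, a basic helix-loop-helix factor, read 12.59, 12.51 and 13.06 in the bladder and 10.26, 9.43 and 7.31 in the reference, 13.2-fold apart. Tcf21, a factor of visceral mesenchyme, was 5.05-fold higher, with 0.07 on its other probe set, and Nr2f2, the nuclear receptor COUP-TFII, 3.80-fold higher, with all other Nr2f2 probe sets between 0.73 and 2.84.

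Other members of the list were not called, and some varied between bladder arrays. Tbx18, which marks the mesenchyme around the ureter, stood at 11.90, 12.52 and 13.29 against 8.59, 10.82 and 7.85 (difference 3.49, adjusted p = 0.116). Isl1, which is needed for growth of the genital tubercle and lower body wall, read 10.59 and 10.53 on bladder 2 and 6 but 12.67 on bladder 8, and 9.03, 8.96 and 11.67 in the reference. Sall1 was at the floor on bladder 2 and 6 and at 9.09 on bladder 8. Bladder 8 was thus the highest bladder array for both genes.

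**Figure D4:**
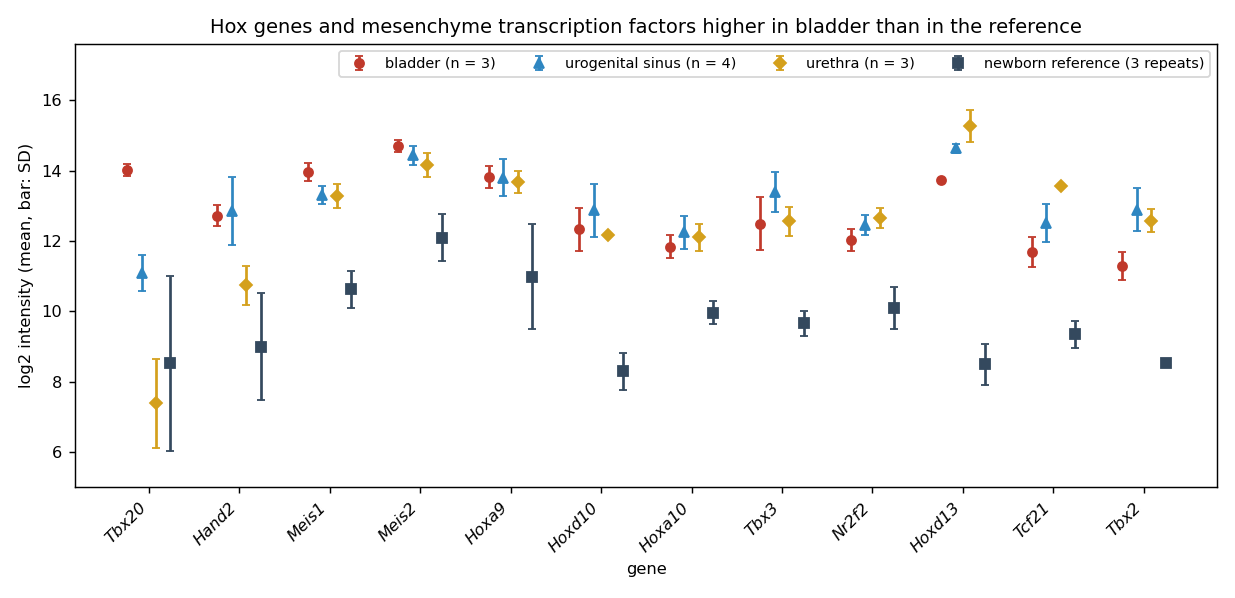
Mean log2 intensity with SD (bars) in the bladder (3 arrays), urogenital sinus (4), urethra (3) and newborn reference (3 repeats of pooled RNA) for the 4 posterior Hox genes and 8 mesenchyme transcription factors called higher in bladder than in the reference, ordered by the difference between bladder and the other regions. Tbx20 stands out in the bladder, whereas Hoxd13, Tcf21 and Tbx2 are lower in the bladder than in the mean of the other regions.

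The same regulators were set beside the neighbouring regions, in a comparison that uses the same bladder arrays. Against the mean of sinus and urethra 738 genes (4.91%) were called, of which 278 (1.85%) were higher and 460 (3.06%) lower in the bladder; without bladder 2, 6 or 8 these became 39, 34 or 69 higher and 85, 65 or 203 lower. Quantile normalization gave 224 higher and 173 lower, and median centring 278 and 75. Of the 26 mesenchyme factors, 1 was higher and 9 were lower. The 1 was Tbx20, with means of 14.03 ± 0.17 (SD, n = 3) in the bladder, 11.09 ± 0.51 (n = 4) in the sinus and 7.39 ± 1.27 (n = 3) in the urethra. It stood 4.79 above the mean of both (SE 0.48, adjusted p = 0.00135). Sall1 differed by -5.29, Isl1 by -3.63 and Tcf21 by -1.35. Hoxd13 averaged 14.63 in the sinus and 15.26 in the urethra, so that the bladder, far above the newborn reference, was 1.21 below its neighbours (adjusted p = 0.0112). Actg2 went the other way, uncalled against the reference and 2.39 above the mean of the neighbours (adjusted p = 0.0261), with 9.26 ± 1.15 (SD, n = 4) in the sinus and 13.31 ± 0.39 (n = 3) in the urethra. Tagln, transgelin, likewise was 3.0 above them, and Gata6 2.64.

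Most urothelial genes were not called. Of 17 tested, 1 was higher and 2 lower, near the shares among all genes (5.82% and 11.2%). The median was 0.22. Foxa1, a forkhead factor of urothelial identity, read 12.92, 13.25 and 13.29 in the bladder against 9.94, 10.38 and 8.95 in the reference, 10.6-fold apart (adjusted p = 0.00263). The uroplakins, which form the plaques of the mature lining, were not called. Upk1b had 13.27, 13.24 and 12.70 against 10.57, 9.97 and 10.53, with no overlap, a difference of 2.71 and an adjusted p of 0.0565 that passed the threshold after median centring (0.0367). Upk3a had 11.43, 11.18 and 9.29 against 7.86, 8.03 and 9.03 (adjusted p = 0.162), Upk2 10.12, 10.31 and 9.52 against 9.34, 9.18 and 9.29, and Upk1a overlapped between the groups. Upk2, too, passed the threshold after median centring (adjusted p = 0.0446), and Upk3a did not (0.058). Snx31, a sorting nexin that binds uroplakins, differed by 1.74 (adjusted p = 0.0703), and by 2.38 after quantile normalization (adjusted p = 0.048).

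Foxa2 and Krt20 were the lower members. Foxa2, the forkhead factor of endoderm, was dim on every bladder array and read 9.18, 8.78 and 9.26 in the reference, at least 3.21-fold higher there; the call was lost after median centring (adjusted p = 0.0516). Krt20, a keratin of the mature surface layer and of the gut, was at least 5.64-fold lower, and the call was lost under both other scalings and without any 1 bladder array (adjusted p up to 0.0952). Epithelial genes in general had 4 lower members of 20 and none higher, against 11.2% and 5.82% of all genes, with a median of -1.15. Krt14, a keratin of basal cells in skin, was dim in the bladder (7.13, 7.02 and 6.47) and high in the reference (13.93, 14.23 and 14.70), at least 119-fold apart, and Krt5, its partner, read 8.32, 8.0 and 7.74 against 14.00, 13.42 and 13.47. Krt15 and Cldn3 were lower by 3.06 and 4.58 on the log2 scale with the deposited scaling and were not called after median centring (adjusted p = 0.119 and 0.0531).

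Hedgehog genes on both sides of the signal were among the higher ones. Of 14 tested, 4 were higher and none lower, against 5.82% and 11.2% of all genes, with a median of 0.34. Under all 3 scalings 3 were higher. With the mean of probe sets 2 were higher, and without bladder 6 also 2. Shh, the ligand made by the lining, read 13.90, 14.24 and 14.24 in the bladder and 12.52, 12.12 and 11.69 in the reference, a difference of 2.02 (SE 0.42, adjusted p = 0.00933). Ptch1, the receptor and a target of the pathway, read 15.20, 15.34 and 15.19 against 14.04, 13.72 and 14.16, 2.41-fold higher; its other probe sets gave -2.05 and -0.18, and the call was lost without bladder 6 (adjusted p = 0.0541). Sufu, which restrains the Gli factors, was 2.54-fold higher, with -0.91 on its other probe set. Gas1, a co-receptor, was 2.26-fold higher with groups that overlapped; its call was lost after quantile normalization (adjusted p = 0.0638) and without any 1 bladder array, reference 2 or reference 3 (up to 0.162).

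In the retinoic acid pathway, 4 genes for making, carrying or sensing the signal were higher and 3 were lower. They were among 16 tested, against 5.82% higher and 11.2% lower among all genes, and the median was -0.53. Rdh10, which makes retinaldehyde, read 13.79, 14.44 and 14.70 in the bladder and 10.44, 10.65 and 11.12 in the reference, 11.9-fold apart. Aldh1a2, the enzyme of the last step, was 6.31-fold higher (adjusted p = 0.00627), and Rarb, a receptor that is itself a target, 7.12-fold higher (adjusted p = 0.00286). Crabp2, a carrier within the cell, was 2.63-fold higher, a call lost without reference 2, bladder 2 or bladder 6 (adjusted p up to 0.233). Rbp4, the retinol carrier of blood plasma, was 103-fold lower and Aldh1a1, a related enzyme, 32.2-fold lower, the latter not called after median centring (adjusted p = 0.0576). Rxra was lower by 1.62 on the log2 scale, a call lost under both other scalings.

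On the brightest probe sets, receptors were among the higher genes of the Wnt and BMP pathways. For Wnt, 4 of 32 were higher and 1 was lower, against 5.82% and 11.2% of all genes. With the mean of probe sets, 0 were higher and 2 lower. Sfrp1, a secreted antagonist, read 13.49, 12.79 and 13.29 in the bladder against 10.33, 11.25 and 10.73 in the reference. It was 5.35-fold apart, with 0.19 to 3.16 on other probe sets. Fzd1 and Fzd2, both receptors, were 2.96-fold and 3.95-fold higher, with 1.35 on the other Fzd1 probe set and 0.49 and 1.26 on those of Fzd2. Ror1, a co-receptor, was 2.75-fold higher, with -0.25 and 0.78 on its other probe sets. Of these, Fzd1 alone stayed called without each bladder array in turn; for Fzd2, Sfrp1 and Ror1 the adjusted p rose to at most 0.051, 0.0542 and 0.0793. Wif1, another antagonist, was dim in the bladder and at least 12.4-fold lower, but was not called under the other scalings.

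For BMP, 4 of 20 were higher and 3 lower, against 5.82% and 11.2% of all genes. With the mean of probe sets, 1 was higher and 3 lower. Bambi, a decoy receptor, read 14.17, 13.78 and 13.90 in the bladder and 10.94, 11.07 and 9.91 in the reference, 9.93-fold apart (adjusted p = 0.00925). Id2, a target of BMP signals, was 2.59-fold higher, with -0.93 and 1.54 on its other probe sets, and the receptors Bmpr1a and Bmpr1b 2.19-fold and 10.5-fold. Other probe sets gave 0.61 to 1.19 for Bmpr1a, and 0.04 and 0.76 for Bmpr1b. The Bmpr1b call was lost without bladder 6 or reference 3 (adjusted p up to 0.0935), and the Bmpr1a call without any 1 bladder array (up to 0.0858) and after median centring (0.0567). The ligand Bmp2 was lower by 3.12 on the log2 scale, with 8.34, 8.01 and 7.68 against 11.43, 11.05 and 10.92, and was not called after median centring (adjusted p = 0.0514). Msx1 and Chrdl1 were also lower, but under neither other scaling. For FGF, 1 of 15 was lower (Fgfr4) and none was higher.

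Regulators of growth and of embryonic stage added a few calls, against 5.82% higher and 11.2% lower among all genes. Hmga2, a chromatin protein of embryonic cells, read 14.02, 13.36 and 14.13 in the bladder and 10.67, 11.66 and 11.06 in the reference (6.51-fold, adjusted p = 0.00256), and its other probe sets gave 3.04 and 3.16. Igf2bp3, an embryonic RNA-binding protein, was 3.53-fold higher (-0.63 to 2.38 on other probe sets), a call lost without any 1 bladder array (adjusted p up to 0.0958). Together these were the 2 higher calls among 14 embryonic stage genes, and none was lower. Of 18 imprinted and insulin-like growth factor genes, Mest alone was higher (2.69-fold) and Igfbp2 alone lower (21.8-fold). The Mest call was lost after quantile normalization (adjusted p = 0.0607) and without any 1 bladder array (up to 0.0568).

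Cell cycle genes held the largest share of higher calls of the 39 lists. Of 31 tested, 18 were higher and none lower, against 5.82% of all genes, with 15 of the 18 called under all 3 scalings. The median difference was 1.57 (1.38 and 2.41 under the other scalings). In 28 of the 31 all bladder arrays lay above all reference arrays, which held for 19.7% of all genes. Without bladder 2, 6 or 8 the higher calls numbered 11, 11 and 10, and without reference 3 they numbered 13, within a range of 10 to 18 over all 13 arrays left out in turn. Against the mean of sinus and urethra, 2 of the 31 were called higher in the bladder and none lower. Among all genes these shares were 1.85% and 3.06%.

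Aurkb, a kinase of chromosome segregation, read 13.41, 13.29 and 12.99 in the bladder and 10.79, 10.09 and 10.80 in the reference, a difference of 2.67 (SE 0.29, adjusted p = 0.000166), with 2.24 on a second probe set. Top2a, the topoisomerase that untangles replicated DNA, read 15.11, 15.44 and 15.15 against 13.68, 12.68 and 12.96, 4.38-fold apart (adjusted p = 0.00118). Its second, dimmer probe set gave -1.66. Cenpe, a kinetochore motor, read 11.60, 11.80 and 12.61 against 9.37, 9.92 and 7.98, and Kif11, the motor that separates spindle poles, read 11.74, 11.79 and 11.81 against 9.89, 8.47 and 9.45. The second Cenpe probe set gave 2.45 and the other Kif11 probe sets 0.74 and 3.02. These 4 genes kept their groups apart on every array.

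**Figure D5:**
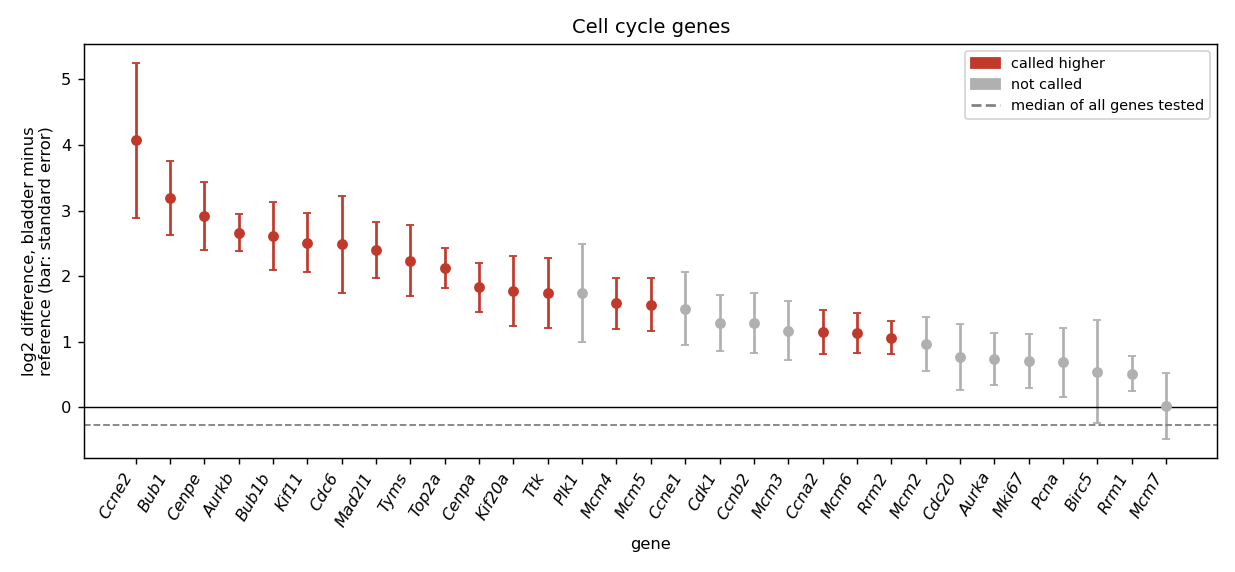
Log2 difference, bladder minus newborn reference (points), with its standard error (bars) for the 31 cell cycle genes, in order of size, coloured by call, with the median of all genes tested (-0.27) as a dashed line. All 31 points lie above the dashed line, and the 18 called genes run from 1.06 to 4.07.

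Because these genes moved together, the bases before their start sites are shown for the members described above that the RefSeq promoter table holds. A CCAAT box, bound by the factor NF-Y, is a common element of cell cycle promoters. Each sequence gives the 250 bases upstream of the RefSeq start site on assembly GRCm38.p6, 5' to 3' on the gene's strand, from chr11:99024190-99024439 (minus strand) for Top2a, chr3:135212313-135212562 (plus strand) for Cenpe and chr19:37376132-37376381 (plus strand) for Kif11. Capitals mark each match to CCAAT or to TTTGAA, a form of the cell cycle homology region, on either strand, so that ATTGG and TTCAAA are matches on the other strand.
Top2a: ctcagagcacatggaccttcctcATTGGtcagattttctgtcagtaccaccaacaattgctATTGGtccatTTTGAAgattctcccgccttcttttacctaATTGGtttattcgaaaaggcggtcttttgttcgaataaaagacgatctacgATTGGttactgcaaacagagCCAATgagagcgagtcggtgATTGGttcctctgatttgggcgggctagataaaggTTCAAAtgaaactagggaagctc
Cenpe: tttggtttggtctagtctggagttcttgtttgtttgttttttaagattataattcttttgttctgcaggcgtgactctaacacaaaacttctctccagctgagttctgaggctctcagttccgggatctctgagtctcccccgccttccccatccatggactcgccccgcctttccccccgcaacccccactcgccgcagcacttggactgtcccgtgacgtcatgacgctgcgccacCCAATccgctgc
Kif11: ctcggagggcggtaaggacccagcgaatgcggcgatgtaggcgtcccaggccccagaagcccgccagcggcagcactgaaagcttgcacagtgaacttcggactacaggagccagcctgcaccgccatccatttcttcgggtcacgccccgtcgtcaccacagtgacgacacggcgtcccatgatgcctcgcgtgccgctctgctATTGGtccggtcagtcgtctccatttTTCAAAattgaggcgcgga

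Top2a holds 6 CCAAT matches in this window, and Cenpe and Kif11 hold 1 each. The CCAAT match nearest the start site has its last base 54 bases before it in Top2a, 41 in Kif11 and 8 in Cenpe. TTTGAA has 2 matches in Top2a and 1 in Kif11. Over the list, 26 of the 31 tested genes have a promoter in the table, and 21 of these (80.8%) hold CCAAT, as do 10 of the 13 matched members called higher (76.9%). In all 27025 genes of the table the share is 37.5%. For TTTGAA the shares are 26.9% of the 26, 15.4% of the 13 called higher and 18.3% of all genes. A CArG box, the element bound by serum response factor, is held by 2 of 18 matched contractile genes (11.1%) and by 1.62% of all genes. Of the contractile genes called higher 0 of 3 hold it, and of the matched cell cycle genes called higher 1 of 13 (7.69%). These are matches of letters, not measured binding.

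The matrix, nerve, vessel and covering tissue of the bladder gave few calls. Of 31 extracellular matrix genes 1 was higher and 3 were lower, against 5.82% and 11.2% of all genes. Vcan, a proteoglycan of embryonic matrix, was 2.34-fold higher (-0.85 to 1.88 on other probe sets), close to the threshold (adjusted p = 0.048), and lost its call without any 1 bladder array (up to 0.107). Fbln2, Tnc and Ogn were lower with the deposited scaling and not called after median centring. Among 15 endothelial genes 1, Sox17, was higher (2.58-fold), a call lost without bladder 2, bladder 8 or reference 3 (adjusted p up to 0.0691). Of 9 mesothelial genes, Gpm6a was lower (23.3-fold, not called after median centring) and none was higher, and of 9 genes of the nephric and reproductive ducts none was called; Calb1 came closest (difference -4.52, adjusted p = 0.0506). Among 15 genes of autonomic neurons and glia 2 were lower, Elavl3 and S100b, neither under another scaling. The median of this last list was -2.73, and all 15 differences were below 0.

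Of 3 embryonic globins 1 was higher and 2 were not called. The higher one was Hbb-y, an embryonic beta-like globin of primitive red cells. It read 15.89, 15.48 and 15.20 in the bladder and 10.55, 10.11 and 9.0 in the reference, 49.7-fold apart (adjusted p = 4.5408e-05). Its probe sets can also bind related globins, and the other ones gave 5.76 and 6.57. Markers of definitive red cells ran the other way, with 5 of 8 lower and none higher, against 11.2% and 5.82% of all genes. Alas2, the first enzyme of haem synthesis in red cells, was lower by 3.70 on the log2 scale and Slc4a1, the anion exchanger of the red cell membrane, 50.4-fold lower. The Slc4a1 call was lost without bladder 8 (adjusted p = 0.0532).

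White cell genes were lower throughout the calls made. Among all genes 11.2% were lower and 5.82% higher. Of 11 neutrophil and marrow genes 9 were lower and none higher, and 10 were dim on all bladder arrays; Ltf, lactoferrin, was at least 54.0-fold lower. Of 14 macrophage genes 8 were lower, and 5 without any 1 bladder array or without sinus 2, sinus 6 or urethra 6 (5 to 11 over all arrays left out in turn). Under all 3 scalings 3 of the 8 were called. Lyz2, lysozyme of myeloid cells, read 9.23, 9.03 and 8.32 in the bladder and 13.07, 12.59 and 12.68 in the reference. Of 8 lymphocyte genes 3 were lower, among them Rag1, which cuts antigen receptor genes and was at the floor on each bladder array. Of 20 immediate early and stress genes 4 were lower and none higher. Under all 3 scalings none of the 4 was called. Fos was lower by 2.26 and Hspa1a, a heat shock protein, by 2.13 on the log2 scale; neither was called after median centring (adjusted p = 0.179 and 0.136).

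Genes of other organs gave the largest differences of the comparison. In 12 lists of organ genes, 119 of 144 members were lower, 1 was higher and 24 were not called, against 11.2% lower among all genes. On every bladder array 88 of the 144 were dim. The median over these lists was -5.18, or -4.30 with dim members set at the filter level. All tested members were lower for skeletal muscle (17 of 17), exocrine pancreas and stomach (11 of 11), intestine (11 of 11), fat (8 of 8) and lung (7 of 7).

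The 10 largest lower genes came from liver, gut and skeletal muscle, and all were dim on every bladder array. Fgg, a fibrinogen chain made by the liver, was at the floor on each and read 16.37, 15.93 and 16.23 in the reference, at least 442-fold apart. Apoa1, of the same source, was at least 430-fold lower and Fabp1, a fatty acid carrier of liver and gut, at least 411-fold. Myh8, the perinatal myosin heavy chain of skeletal muscle, read 5.65, 6.62 and 5.65 against 16.39, 16.23 and 16.75, at least 536-fold apart. Igfbp1, Fgb, Apoa4, Ahsg, Tnnc2 and Myh3 were at least 314-fold to 405-fold lower.

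The share of lower genes varied between organs. For heart, with 10 of 15 lower, Myh6, the atrial myosin, was at least 121-fold lower. For skin, with 12 of 13 lower, Flg, filaggrin, was at the floor in the bladder and at 13.89, 14.03 and 13.71 in the reference. For lung, Sftpc, a surfactant protein, was at least 160-fold lower, and for fat Ucp1, the heat-making uncoupler of brown fat, at least 205-fold. For kidney, 6 of 10 were lower, and Umod, uromodulin, was at least 7.59-fold lower. For cartilage and bone 11 of 13, for liver 12 of 15, for eye 8 of 10 and for brain 6 of 14 were lower. The 1 higher organ gene was Gfap of the brain list, with 8.14, 8.04 and 7.84 against values under the filter level in the reference, and a second probe set at -0.77; its call was lost without bladder 2, bladder 6 or reference 3 (adjusted p up to 0.0739).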

How the data were processed

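RNA was amplified in 2 rounds, biotin-labelled and hybridised to mouse expression arrays, per the labels' protocols. The authors deposited linear signal intensities, and the submitters' processing notes name GCOS; its version was not given in the sources used here. Every array has a 2% trimmed mean of 1500. Here values under the 20th percentile (50.23) were raised to it, log2 values were taken, and probe sets above the 40th percentile (167.76) on at least 3 arrays were kept. Of 45101 probe sets, 34945 name 1 gene and 33125 of all passed; the brightest per gene gave 15019 genes.

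limma 3.58.1 in R 4.3.3 (lmFit, eBayes with an intensity trend) was fitted to the 10 region arrays and the mean of the 3 reference arrays, counted as 1 sample because they repeat pooled RNA (7 residual degrees of freedom), with Benjamini-Hochberg adjustment over all genes. The fit was tested on simulated data. A fold is the difference raised from log2; where every array of a group was dim, it is a lower bound against the filter level. Genes and lists were chosen with earlier results of these data known. Named were Actg2, the 20 higher and 10 lower called, non-overlapping genes with the largest differences, up to 4 called members per list and direction by adjusted p (or the lowest p where none was called), and any member of the lists for contractile, posterior Hox, mesenchyme and urothelial genes. In all, 593 of 693 listed genes were tested. Some probe sets, such as those of Hbb-y, Acta2, Tbx3 and Krt14, can bind related genes. Promoters are from RefSeq. Alternatives changed the scaling, floor, filter, probe set rule, samples, blocks and test settings. Same-numbered region samples correlated in their deviations at -0.17 to 0.36, over 0.1 in 5 of 7 pairs. The main fit had no block for the number, so it leaves out any such pairing. With the number as a random block, the block correlation was 0.27, and the counts are given below.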

Additional observations from a re-analysis of the deposited data

Results flagged for a closer look

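For 26 of the genes described, the bladder and the other regions stood at different distances from the same newborn reference, by limma's test of bladder minus the mean of urogenital sinus and urethra at an adjusted p under 0.05. Values are log2 differences between the regions. Of these, 9 were higher in the bladder than in the other regions: Aurkb 1.01, Thsd1 1.40, Cep55 1.44, Sfrp1 1.49, Pln 2.24, Gabra4 2.32, Gata6 2.64, Tmem200a 2.76 and Tbx20 4.79. The other 17 were lower in the bladder than in the other regions. Among those that were higher in the bladder than in the reference, the values were Ror1 -1.54, Tbx2 -1.44, Rarb -1.38, Tcf21 -1.35, Crabp2 -1.31, Shh -1.30, Hmga2 -1.27 and Hoxd13 -1.21. Among those lower than in the reference, they were Foxa2 -4.28, Krt5 -4.22, Igfbp2 -3.79, Aldh1a1 -3.59, Krt15 -3.27, Elavl3 -2.85, Chrdl1 -2.54, Tnc -2.28 and Bmp2 -1.62. Pln, phospholamban, was higher in the bladder than in the other regions although lower than in the reference. No cause of these differences was tested.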

How the results depend on the processing

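The count of genes called between bladder and reference (2557) was 5791 (2355 higher, 3436 lower) with array weights, 5390 (2081 and 3309) with the 3 reference arrays as 3 samples, 5761 (2193 and 3568) with only bladder and reference arrays, 4249 (1525 and 2724) with title style as a fixed block and 5384 (2079 and 3305) as a random block. The fits with only bladder and reference arrays and with title style also count the reference as 3 samples, so they are to be read against 5390. Median centring left 995 lower. Leaving out 1 array gave 1776 to 3411 called, 475 to 1295 higher and 1301 to 2116 lower. Between bladder and the other regions (738 called), quantile normalization gave 397 (173 lower), median centring 353 (75 lower), array weights 2810 (937 higher, 1873 lower) and title style as a fixed block 194 (50 and 144). Leaving out 1 array gave 99 to 1121 called, 34 to 411 higher and 65 to 710 lower. With the replicate number as a random block, 2516 genes (868 higher, 1648 lower) were called against the reference and 1168 (441 and 727) against the other regions; the reference shares no number with the bladder. The cause was not tested.

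Of the 132 genes described, 113 were called. Of these, 59 stayed called in all 29 settings that gave a test, and 54 were lost in at least 1. The mean of a gene's probe sets lost the most, 27, and gave 592 higher and 1782 lower calls over all genes, against 874 and 1683. The brightest probe set was chosen by its mean over all 13 arrays, of which 10 are region arrays. Ptch1 became -0.32 with the mean of its probe sets and Top2a -1.66 without probe sets whose suffix marks shared targets, neither called there. With 3 arrays a group, and signals near the filter level, small differences of dim genes could not be resolved.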
